A study of Homo sapiens with 54 samples.

Results

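APOBEC3B, KPNA2 and CKS1B are 3 of the 18417 genes with a named probe set on the array, chosen by the large falls of their RNA in Argonaute immunoprecipitates (IP) after transfection of microRNAs of the group named after miR-15 and miR-107. The array held 6 probe sets for them, 1 for APOBEC3B, 2 for KPNA2 and 3 for CKS1B, and all 3 genes passed the filter on low values that left 11050 genes for testing. Cultures of H4, an established human neuroglioma line, received 1 of 9 small RNAs and were collected 48 h later. An anti-Argonaute IP and a total lysate were profiled for each condition in 3 biological replicates, giving 54 arrays in 18 groups of 3. That group was represented by miR-103, miR-107, miR-16, miR-195, called the 4 microRNAs below, and their values are given in that order. Their comparators were miR-320, which is a physiological microRNA, and miR-15b*, which the labels describe as an antisense control and whose sample titles read miR-15b. Non-physiological molecules were miR-107-mut1 and miR-107-mut2 (titled Mut M1 and Mut M2), whose sequences are not given in the sources used here, and a commercial negative control RNA, called the control below. Every group was transfected, so no untransfected cells stand beside them, and H4 is a transformed line, which limits it as a model of neurons or glia.

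Argonaute proteins hold a microRNA and use its seed, the bases near its 5′ end, to bind target messages, so an Argonaute IP recovers messages occupied by microRNAs together with other RNA that the antibody brings down. A message can be lower in the IP because less of it is bound or because less of it is in the cell, and the lysate arrays measure the second quantity. APOBEC3B is a nuclear DNA cytosine deaminase that acts on single-stranded DNA. KPNA2 is an importin alpha, the adaptor that links cargo with a classical nuclear localization signal to importin beta. CKS1B binds cyclin-dependent kinases and is the cofactor with which the ubiquitin ligase SCF-SKP2 recognises the inhibitor p27. Messages of this kind are commonly made in dividing cells, and microRNAs of this group are known for lowering cell cycle genes.

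The mature sequences of the natural microRNAs are shown to identify the molecules that were compared. They were taken from RefSeq (GRCh38.p14) by name, since the transfected sequences themselves are not given in the sources used here, and the capitals mark the seed, bases 2 to 8.
miR-103 (miR-103a-3p): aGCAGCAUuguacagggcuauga
miR-107: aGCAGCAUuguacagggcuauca
miR-16 (miR-16-5p): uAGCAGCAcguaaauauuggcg
miR-195 (miR-195-5p): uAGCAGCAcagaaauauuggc
miR-15b* (miR-15b-3p): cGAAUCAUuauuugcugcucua
miR-103 and miR-107 have the seed GCAGCAU and match at 22 of 23 positions. miR-16 and miR-195 have the seed AGCAGCA and match at 19 of 21 compared positions. All 4 contain the run AGCAGCA, which starts at base 1 in miR-103 and miR-107 and at base 2 in miR-16 and miR-195. The longest run that miR-15b* shares with any of the 4 is 4 bases.

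Array means ran from 3.68 to 3.97 in the IP and from 7.71 to 7.77 in the lysates over the genes of the table, on the log2 scale. The fractions therefore look as if they were normalized apart, and levels are compared within a fraction. Among the tested genes the array medians were 4.10 to 4.83 in the IP and 8.78 to 8.97 in the lysates. The arrays miR-15b* IP replicate 1, miR-15b* lysate replicate 2 and miR-16 lysate replicate 2 stood apart from their fraction, with mean correlations of 0.805, 0.873 and 0.895 against medians of 0.919 in the IP and 0.961 in the lysates. The filter removed 40% of all genes. Neuronal markers passed it for 5 of 7 genes in the table and glial markers for 5 of 8. Of the glial markers that passed, VIM was at 12.6 and SOX2 at 10.3 in the lysates. OLIG2, NES and GFAP were lower, at 7.20, 6.85 and 6.69. The glial markers S100B, AQP4 and SLC1A3 and the neuronal markers DCX and NEFM did not pass. The filter was set on the mean over the arrays of both fractions. The lysate means of these markers were 4.47, 4.65, 7.25, 5.33 and 5.60. Of the haematopoietic markers 1 of 5 passed, SPI1, and of the epithelial markers the keratins KRT8 and KRT18, 2 of 4.

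In the control IP, APOBEC3B and KPNA2 had mean levels of 9.06 ± 0.50 and 8.88 ± 0.27 (log2, SD, n = 3), and CKS1B stood at 7.44 ± 0.58. With each of the 4 microRNAs all 3 genes lay near the median of the array. These IP differences chose the genes and are therefore described with no test.

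APOBEC3B read 8.86, 8.69 and 9.62 in the 3 control IP arrays. It read 4.33, 4.45 and 3.64 with miR-103, and 4.42, 4.73 and 5.17 with miR-107. It read 5.45, 4.35 and 5.16 with miR-16, and 5.33, 3.82 and 6.12 with miR-195. All 12 of these arrays were below the lowest control array, and the highest of them was the third replicate of miR-195. The differences from the control were -4.92, -4.28, -4.07 and -3.97 with the 4 microRNAs, which are 30.2-fold, 19.5-fold, 16.8-fold and 15.6-fold lower levels. APOBEC3B ranked 1 of 11050 genes by the size of its fall in each of the 4. Other transfections also gave lower values than the control, with 6.37, 7.66 and 8.34 for miR-320, 5.76, 6.90 and 8.43 for miR-15b*, 6.71, 7.75 and 8.34 for miR-107-mut1 and 4.77, 5.45 and 6.64 for miR-107-mut2. Every array of those 4 groups was below every control array, so APOBEC3B was lower in the IP with all 8 molecules than with the control, and lowest with the 4 microRNAs. It also ranked 1 with miR-107-mut2, 7 with miR-320, 14 with miR-107-mut1 and 19 with miR-15b*. The 8 differences share the control arrays. Ordered by mean level, miR-103, at 4.14, stood beyond the spread of its neighbour miR-107. The means of miR-107, miR-16, miR-195 and miR-107-mut2, at 4.78, 4.98, 5.09 and 5.62, each lay within the spread of the next, as did those of miR-15b*, miR-320 and miR-107-mut1, at 7.03, 7.46 and 7.60.

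KPNA2 read 8.72, 8.72 and 9.20 in the control IP. It read 4.39, 5.39 and 5.33 with miR-103, 5.09, 4.38 and 5.44 with miR-107, 5.05, 4.60 and 5.70 with miR-16, and 5.11, 5.31 and 5.74 with miR-195. These groups did not overlap the control, and their means of 4.97 to 5.39 each lay within the spread of the next. That chain ran on through miR-107-mut2 (5.67) and miR-15b* (6.08) to miR-107-mut1 (7.23). The differences of the 4 microRNAs from the control were -3.84, -3.91, -3.76 and -3.49, or 11.3-fold to 15.1-fold lower. KPNA2 ranked 2 of 11050 in each of the 4. With miR-320 it read 7.59, 8.75 and 9.14, which overlapped the control, at a difference of -0.39. With miR-15b* it read 4.32, 6.42 and 7.50, and the lowest of these, from the array that stood apart, was lower than every array of the 4 microRNAs. With miR-107-mut1 it read 6.38, 7.31 and 8.01, and with miR-107-mut2 4.97, 5.92 and 6.14. The differences of -1.65 for miR-107-mut1 and -3.21 for miR-107-mut2 place the second molecule beside the natural microRNAs and the first between them and the control. KPNA2 ranked 2 with miR-107-mut2, 3 with miR-15b* and 8 with miR-107-mut1. The second KPNA2 probe set, 8019737, gave -3.72 to -3.28 with the 4 microRNAs, and its levels tracked the first over the 27 IP arrays (r = 0.998, a description, since arrays of a group share their treatment).

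CKS1B read 7.05, 7.17 and 8.11 in the control IP on probe set 8112327, which had the highest mean of its 3. It read 4.83, 4.14 and 5.08 with miR-103, 4.06, 4.80 and 4.38 with miR-107, 3.98, 3.85 and 4.88 with miR-16, and 4.01, 4.42 and 5.12 with miR-195. Again none of the 12 arrays reached the control's lowest value. The differences were -2.76, -3.03, -3.21 and -2.93, or 6.78-fold to 9.24-fold lower, at ranks 12, 7, 4 and 5. CKS1B was not below the control with miR-320 (7.23, 7.82 and 7.96) or miR-107-mut1 (6.96, 7.99 and 7.90), whose arrays overlapped the control's. It was low with miR-107-mut2 (4.76, 4.99 and 6.34), at rank 21, and with miR-15b* it spread from 4.10 and 4.94 to 7.30, with the third array inside the control's range.

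The size of the IP differences depended on the baseline, since other transfections also lay below the control. Against the mean of the control, miR-320 and miR-15b*, the 4 microRNAs stood at -3.71 to -2.76 for APOBEC3B, -2.85 to -2.43 for KPNA2 and -2.62 to -2.17 for CKS1B. miR-107-mut2 stood at -2.23, -2.14 and -1.49 for the 3 genes on that baseline, and miR-107-mut1 at -0.25, -0.59 and 0.76.

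The counts of genes behind these patterns give their scale. The share of the 11050 genes whose 3 arrays all lay below all 3 control arrays in the IP was 20.6% with miR-103, 26.0% with miR-107, 13.8% with miR-16 and 11.6% with miR-195. It was 5.49% with miR-320, 6.83% with miR-15b*, 3.72% with miR-107-mut1 and 8.33% with miR-107-mut2. All 3 genes met that count with the 4 microRNAs and with miR-107-mut2, which the choice of the genes fixes for the 4 microRNAs. The median gene differed from the control by -0.19 to -0.07 over those 4.

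**Figure D1:**
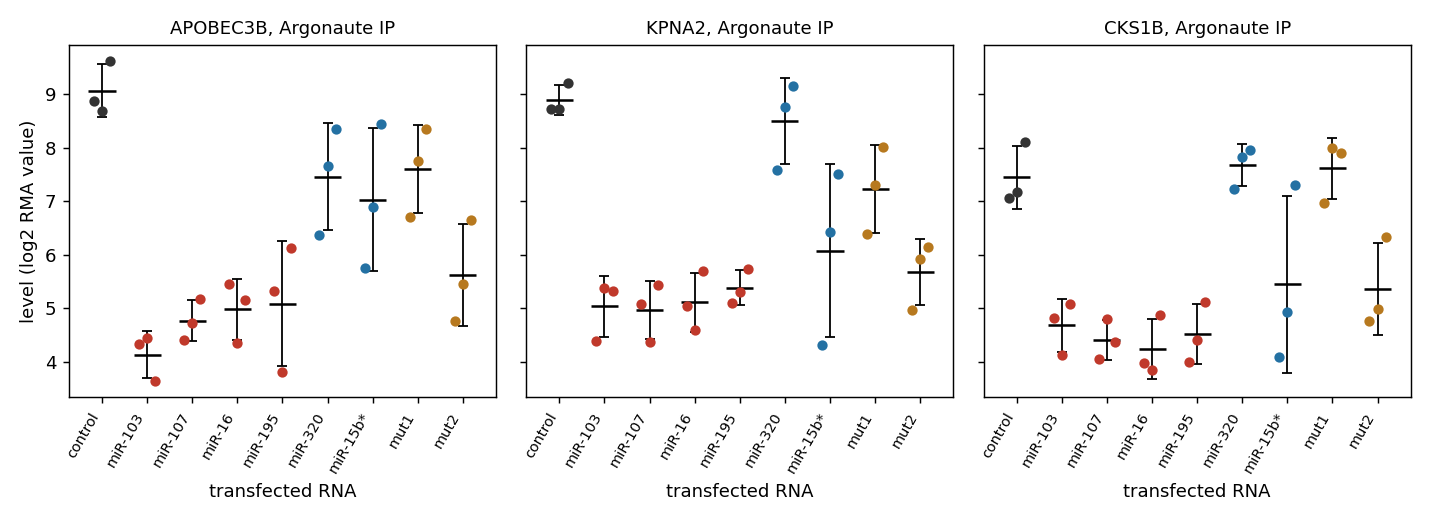
Levels of APOBEC3B, KPNA2 and CKS1B in the Argonaute IP (y axis, log2 RMA value) for the 9 transfected RNAs (x axis; mut1 and mut2 are miR-107-mut1 and miR-107-mut2). Points are arrays from replicate 1 to 3 left to right, the line is the mean and the bar the SD (n = 3); the 12 arrays of the 4 microRNAs (red) lie below every control array (black) in each gene, and the miR-15b* arrays spread widely.

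Replicate number 3 gave the highest of the 3 IP values in 7 of 9 groups for APOBEC3B, 8 of 9 for KPNA2 and 7 of 9 for CKS1B. Replicate number 1 gave the lowest in 5, 6 and 7 of 9. The labels tie arrays of equal number by a common code whose meaning they do not state. Taken within a number, all 12 differences of the 4 microRNAs from the control had the same sign for each gene, at -5.98 to -3.41 for APOBEC3B, -4.35 to -3.34 for KPNA2 and -3.73 to -2.22 for CKS1B.

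Tests were possible in the IP only among arrays that did not choose the genes. KPNA2 was higher with miR-320 than with miR-15b* by 2.41 ± 0.58 (log2, SE, limma, adjusted p = 0.012), with no overlap of the arrays, and CKS1B by 2.23 ± 0.57 (limma, adjusted p = 0.02), with overlap. In that contrast 5.52% of all tested genes were called higher. Both calls rested on miR-15b* IP replicate 1: without it the differences were 1.53 (limma, adjusted p = 0.14) and 1.55 (limma, adjusted p = 0.21). They were also lost without miR-320 IP replicate 3 (2.09 and 2.08), and that of CKS1B without miR-320 IP replicate 2 (2.15) or miR-15b* IP replicate 2 (1.97). APOBEC3B differed by 0.43 (95% interval -0.89 to 1.75) and was not called.

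miR-107-mut2 lay below the mean of miR-320 and miR-15b* by a difference of -1.62 ± 0.55 for APOBEC3B, -1.61 ± 0.50 for KPNA2 and -1.20 ± 0.50 for CKS1B. None of the 3 was called (limma, adjusted p = 0.27, 0.18 and 0.49), beside 0.842% of genes called lower. With the replicate number as a block, APOBEC3B (limma, adjusted p = 0.042) and KPNA2 (limma, adjusted p = 0.0073) passed. KPNA2 also passed without miR-15b* IP replicate 1, at -2.05 (limma, adjusted p = 0.0054). For miR-107-mut1 the same differences were 0.36 (95% interval -0.79 to 1.5), -0.06 (-1.09 to 0.98) and 1.06 (0.03 to 2.09). None was called, beside 1.1% of genes called higher, although CKS1B passed without miR-15b* IP replicate 3, at 1.52 (limma, adjusted p = 0.029).

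The CKS1B probe sets differed. Probe set 7926896, which the probe table ties to the same 11 accessions as 8112327, gave IP differences of -2.98 to -2.61 with the 4 microRNAs and tracked it at r = 0.997 over 27 arrays. Probe set 7905826, tied to 4 accessions that are all among those 11, read 5.27, 4.87 and 4.48 in the control IP and differed by -0.98 to 0.02. Its correlation with 8112327 was 0.172 in the IP against 0.946 in the lysates. An identical value of 4.4713 recurred on 4 IP arrays, and 627 tested genes had a value that recurred on as many. Rounded to 4.47, it was read on all 3 arrays of miR-320 and on replicates 1 and 3 of miR-15b*. In the lysates the same probe set read 10.04, 10.01 and 10.01 in the control and differed by -1.28 to -0.88. The loss of CKS1B from the IP was thus read by 8112327 and 7926896, which share their accessions and are not separate observations. The control IP mean of 7905826, 4.87, was near the IP array medians of 4.10 to 4.83. Whether that limited its falls there was not tested. With miR-16 it read 4.09, 3.33 and 4.27, all below the control arrays. With miR-103, miR-107 and miR-195 its arrays overlapped the control's. All 3 probe sets were lower in the lysates. RefSeq lists 7 pseudogenes of CKS1B and 3 of KPNA2, and signal from near-identical copies cannot be told apart here.

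**Figure D2:**
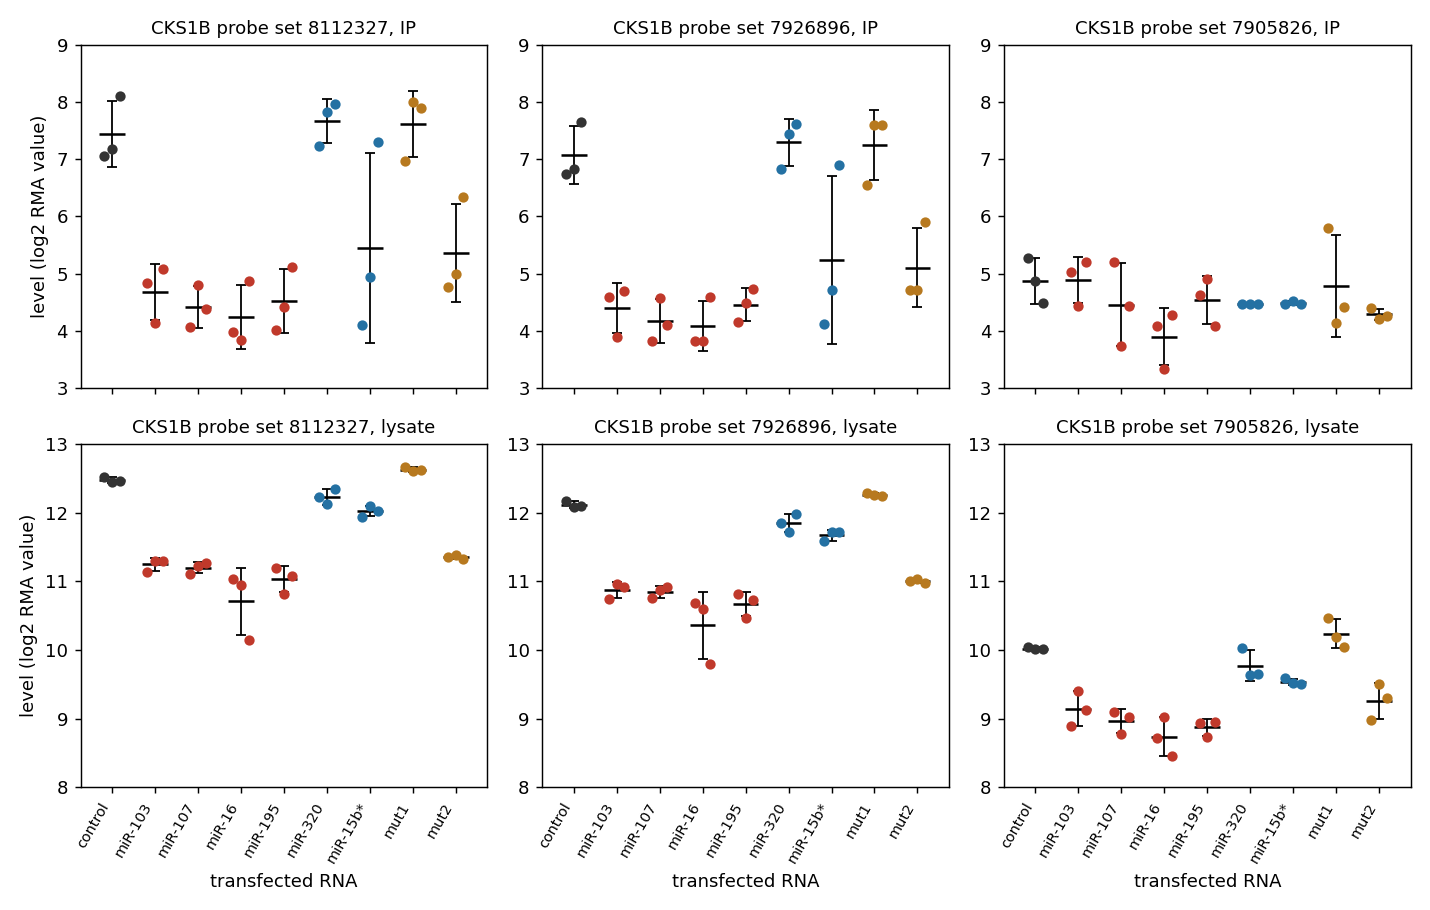
CKS1B levels (y axis, log2 RMA value) on its 3 probe sets in the IP (top) and the lysate (bottom) for the 9 transfected RNAs, with arrays as points, the mean as a line and the SD as a bar (n = 3). Probe sets 8112327 and 7926896 are low with the 4 microRNAs (red) in both fractions, and 7905826 is low in the lysate but at 3.90 to 4.89 against 4.87 in the control in the IP.

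The lysates, whose arrays did not choose the genes, tested whether the amount of each message in the cells changed. They came from the same cultures as the IP, so they are not an independent experiment. All 3 messages fell with each of the 4 microRNAs and with miR-107-mut2, and none was called with miR-320, miR-15b* or miR-107-mut1. APOBEC3B changed by -2.04 to -1.92 with these 5 molecules, CKS1B by -1.77 to -1.12 and KPNA2 by -0.77 to -0.44. A smaller share of cells in the phases that make these messages and less message per cell cannot be told apart in such samples.

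APOBEC3B read 10.90, 11.22 and 11.29 in the control lysate. It read 8.68, 9.29 and 9.67 with miR-103, 8.55, 9.39 and 9.54 with miR-107, 9.21, 8.95 and 9.14 with miR-16, and 9.30, 8.75 and 9.27 with miR-195. All were more than 1 log2 unit below the lowest control array. Its changes were -1.92, -1.98, -2.04 and -2.03 (SE 0.35 each; limma, adjusted p = 3.9e-04, 2.8e-04, 2.3e-04 and 2.3e-04), or 3.80-fold to 4.11-fold lower. With miR-107-mut2 it read 8.73, 9.14 and 9.68 and fell by 1.95 ± 0.35 (limma, adjusted p = 3.9e-04). With miR-107-mut1 it read 10.54, 11.19 and 11.29, with miR-320 9.93, 11.38 and 11.08 and with miR-15b* 10.11, 10.96 and 10.96. Those groups overlapped the control, and their differences of -0.13, -0.34 and -0.46 had 95% intervals reaching down to -0.85, -1.06 and -1.18.

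KPNA2 read 12.37, 12.68 and 12.67 in the control lysate, 11.80, 11.74 and 12.11 with miR-103, 11.87, 12.27 and 12.06 with miR-107, 11.84, 11.64 and 11.96 with miR-16, and 11.86 to 12.07 with miR-195. No array of the 4 groups overlapped the control. Its changes were -0.70, -0.51, -0.77 and -0.60 (SE 0.14 each; limma, adjusted p = 0.0016, 0.018, 6.2e-04 and 0.0058), or 1.42-fold to 1.70-fold lower. With miR-107-mut2 it read 11.93, 12.22 and 12.25 and fell by 0.44 ± 0.14 (limma, adjusted p = 0.045). The call with miR-107 was lost without miR-107 lysate replicate 1 (-0.41) or 3 (-0.51) or control lysate replicate 2 (-0.45) or 3 (-0.46). That with miR-107-mut2 was lost without any 1 of its own 3 arrays (-0.34, -0.49 and -0.50) or control lysate replicate 2 (-0.39) or 3 (-0.40), and was at an adjusted p of 0.051 with no filter (limma). KPNA2 read 12.69, 12.87 and 12.86 with miR-107-mut1, above every control array, at a difference of 0.23 (95% interval -0.07 to 0.53) that was not called. With miR-320 and miR-15b* the differences were 0.01 and -0.15, with overlap.

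CKS1B read 12.52, 12.44 and 12.46 in the control lysate, 11.14, 11.30 and 11.30 with miR-103, 11.11, 11.22 and 11.27 with miR-107, 11.03, 10.94 and 10.15 with miR-16, and 11.19, 10.82 and 11.08 with miR-195. Every array was below the control, and the third array of miR-16 was the lowest. Its changes were -1.23, -1.27, -1.77 and -1.44 (SE 0.15 each; limma, adjusted p = 3.4e-06, 2.0e-06, 3.8e-08 and 6.2e-07), or 2.34-fold to 3.41-fold lower. Without the third miR-16 array, whose description in the labels carries a suffix that the other miR-16 arrays lack, its change with miR-16 was -1.49. With miR-107-mut2 it read 11.35, 11.38 and 11.33 and fell by 1.12 ± 0.15 (limma, adjusted p = 1.5e-05). It was not called with miR-15b* at -0.45 (limma, adjusted p = 0.069), with miR-320 at -0.25 or with miR-107-mut1 at 0.15. Its arrays with miR-15b* (11.94, 12.09 and 12.03) and miR-320 (12.22, 12.12 and 12.35) all lay below the control and those with miR-107-mut1 (12.66, 12.60 and 12.62) all above it.

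These calls stand beside the share of all tested genes called in each lysate contrast. With miR-103 8.88% were called lower and 8.37% higher, with miR-107 8.35% and 6.51%, with miR-16 7.45% and 9.56%, and with miR-195 7.22% and 6.82%. With miR-107-mut2 the shares were 7.58% and 6.23%, with miR-107-mut1 5.44% and 3.33%, with miR-15b* 4.04% and 3.5%, and with miR-320 1.5% and 1.46%. Each of the 3 genes was called lower in 5 of 8 contrasts.

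**Figure D3:**
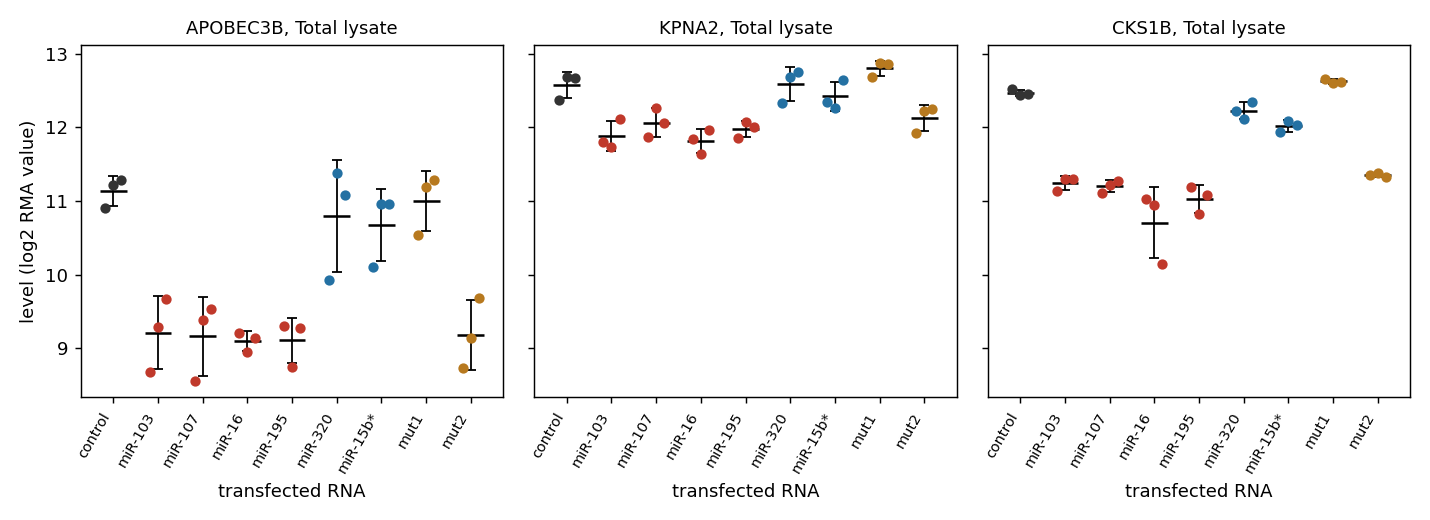
Levels of APOBEC3B, KPNA2 and CKS1B in the total lysate (y axis, log2 RMA value) for the 9 transfected RNAs (x axis), with arrays as points, the mean as a line and the SD as a bar (n = 3). The arrays of the 4 microRNAs (red) and of miR-107-mut2 (the last column) lie below the control (black) in all 3 genes, and those of miR-107-mut1 reach the control or lie above it.

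Direct contrasts set the molecules against each other in the lysate. miR-107 lay below miR-107-mut1 by a difference of -1.85 ± 0.35 for APOBEC3B (limma, adjusted p = 6.4e-04), -0.74 ± 0.14 for KPNA2 (limma, adjusted p = 9.3e-04) and -1.43 ± 0.15 for CKS1B (limma, adjusted p = 5.2e-07), where 6.51% of genes were called lower. Against miR-107-mut2 the differences were -0.02 (95% interval -0.75 to 0.70), -0.06 (-0.37 to 0.24) and -0.16 (-0.47 to 0.15), none called, and only 0.0543% of all genes were called lower. The 4 microRNAs as a group lay below the mean of miR-320 and miR-15b*, a contrast that uses no control array, by differences of -1.59 ± 0.21, -0.57 ± 0.09 and -1.08 ± 0.09 (limma, adjusted p = 7.3e-06, 4.7e-05 and 9.6e-09), with 11.3% of genes called lower. The seed pairs differed for CKS1B, which was 0.35 ± 0.11 higher with miR-103 and miR-107 than with miR-16 and miR-195 (limma, adjusted p = 0.034), with overlapping arrays and 3.57% of genes called higher. That call was lost without replicate 2 or 3 of miR-103, miR-107 or miR-195, at 0.30 to 0.37, and with only the arrays compared (limma, adjusted p = 0.2), and the difference was 0.22 without miR-16 replicate 3. For APOBEC3B and KPNA2 the same difference was 0.08 each, with 95% intervals of -0.43 to 0.60 and -0.13 to 0.29.

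The IP and lysate differences were not in proportion. With the 4 microRNAs the IP difference minus the lysate difference was -2.99 to -1.94 for APOBEC3B, -3.40 to -2.89 for KPNA2 and -1.76 to -1.44 for CKS1B, where the median gene stood at -0.20 to -0.10. KPNA2, which fell least in the lysate, thus had the greatest gap, at rank 4 or 5 of 11050 with each of the 4. APOBEC3B ranked 6 to 45 and CKS1B 94 to 163. KPNA2 also had a gap with miR-107-mut2 (-2.76, rank 4), miR-15b* (-2.64, rank 5) and miR-107-mut1 (-1.88, rank 7). The last 2 are molecules with which its lysate level was not called. Without miR-15b* IP replicate 1, which stood apart, the IP difference of KPNA2 with miR-15b* was -1.92 in place of -2.8. These values hold the IP contrast that chose the genes and are a description, and a difference of scale between the fractions was not tested.

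**Figure D4:**
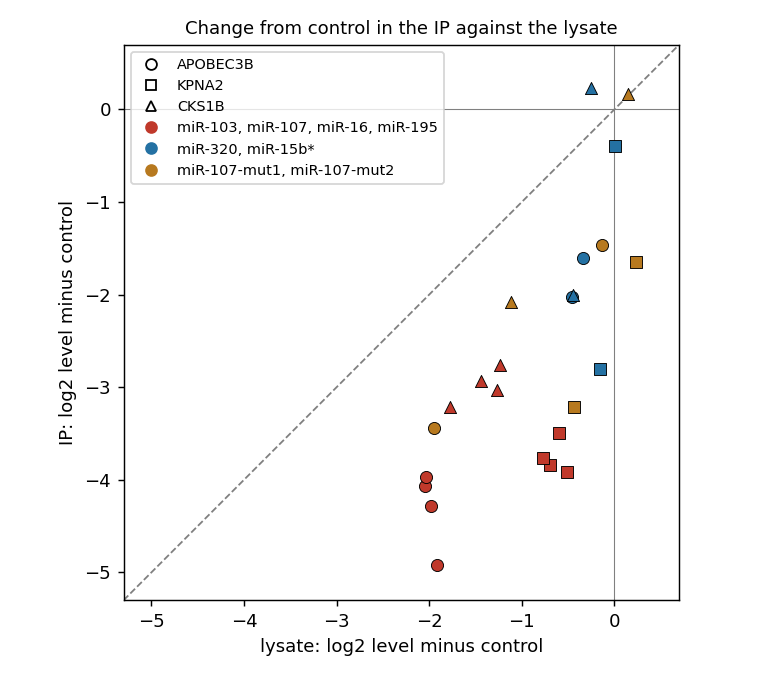
Difference from the control in the IP (y axis, log2) against that in the lysate (x axis, log2) for APOBEC3B (circles), KPNA2 (squares) and CKS1B (triangles) with 8 transfected RNAs, coloured by kind; the dashed line marks equal differences. KPNA2 lies lowest for its lysate difference, at -3.91 to -3.49 in the IP against -0.77 to -0.51 with the 4 microRNAs (red).

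IP and lysate arrays were set against each other by replicate number, although deviations of arrays so matched correlated at a mean of only 0.078, with 11 of 27 over 0.1, and the SDs here rest on that matching. Relative to the median gene of the same pair of arrays, the IP level minus the lysate level of APOBEC3B was 2.10 ± 0.30 (SD, n = 3) in the control. It was -0.66 ± 0.93 with miR-103, 0.19 ± 0.19 with miR-107, 0.34 ± 0.49 with miR-16 and 0.37 ± 0.70 with miR-195. In these values APOBEC3B stood above the median gene in the control and nearer to it with the 4 microRNAs. The values of this paragraph hold the IP arrays that chose the genes and are a description. APOBEC3B stood at 0.71 to 0.82 with the other 4 molecules. With cyclic loess over both fractions it stood at 2.19 in the control, and at -0.30, 0.60, 0.69 and 0.64 with the 4 microRNAs. The other 4 molecules then gave 0.78 to 1.23, so miR-107, miR-16 and miR-195 lay close to them. KPNA2 was at 0.49 ± 0.16 in the control and between -2.53 and -2.20 with the 4 microRNAs. It was at -2.18 ± 0.28 with miR-107-mut2, -1.87 ± 1.03 with miR-15b* and -1.45 ± 0.42 with miR-107-mut1. CKS1B was at -0.85 ± 0.40 in the control, below the median gene, and between -2.22 and -2.02 with the 4 microRNAs. With miR-15b* it was at -2.11 ± 1.15 and with miR-107-mut2 at -1.72 ± 0.63.

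The gene list of each pathway shows how far these falls were shared in the lysate. Counts and medians of these lists include APOBEC3B, KPNA2 or CKS1B itself. The APOBEC family had 5 of its 8 genes in the table above the filter, and 3 fell with miR-103 and with miR-107 but 1, APOBEC3B, with miR-16 and with miR-195. APOBEC3C, a cytidine deaminase that restricts retroelements, fell with miR-103 (-1.30) and miR-107 (-1.32) (limma, adjusted p = 1.0e-05 and 7.9e-06), and read -0.02 and -0.23 with miR-16 and miR-195. In the direct contrast of the seed pairs 2 of the 5 were called lower with miR-103 and miR-107, beside 6.47% of all tested genes. APOBEC3D fell with the first pair (-0.48 and -0.47; limma, adjusted p = 0.02 and 0.025). APOBEC3F and APOBEC3G, antiviral deaminases, were at -0.16 to 0.02 and 0.09 to 0.18 and were not called.

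Of 25 tested nuclear transport receptors and Ran cofactors, 8, 8, 6 and 4 fell with the 4 microRNAs, at list medians of -0.46 to -0.21, and at most 1 rose. The importin alphas KPNA1, KPNA3 and KPNA4, which carry the same kind of cargo as KPNA2, were called with none of the 4, at means over the 4 of -0.11, -0.66 and -0.26, so a fall the size of that of KPNA2 in KPNA3 did not pass against its wider spread. KPNA6 fell with miR-103 (-0.48) and miR-107 (-0.41). Among those called with all 4 were the importin IPO9 (mean -0.58), TNPO3, a carrier of serine and arginine rich proteins (-0.67), and KPNA2 itself (-0.64). CSE1L, which returns importin alpha to the cytoplasm, fell with 2 of 4 (mean -0.81), and KPNB1, the importin beta partner of KPNA2, with 1 of 4 (mean -0.30).

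Among 19 tested CKS, SCF-SKP2 and cyclin-CDK genes, 8, 8, 9 and 10 fell with the 4 microRNAs and none rose. CKS2, the paralogue of CKS1B, fell with all 4, at -0.66 to -0.48, beside CKS1B at -1.77 to -1.23. CCNB1 and CCNB2, the B-type cyclins of mitosis, fell with all 4 (means -2.28 and -2.29), as did CCNA2 (-1.97) and CDC20, an activator of the anaphase-promoting complex (-1.77). SKP2 and CDKN1B, which encode the ligase subunit that CKS1B serves and its substrate p27, were called with none (means -0.32 and -0.07).

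Most genes of the S phase and mitosis lists fell with the 4 microRNAs. Of 31 S phase genes 31, 30, 29 and 28 fell with the 4 microRNAs, at medians of -1.64 to -1.20, led by ASF1B (mean -2.54), a histone chaperone, and TK1 (-2.27), a thymidine kinase. Of 20 G2 and mitosis genes 20, 19, 20 and 20 fell, at medians of -2.12 to -1.82, led by KIF20A (-2.39), a mitotic kinesin, and PLK1 (-2.36), a mitotic kinase. Of 18 E2F, RB and DREAM regulators 7, 6, 8 and 6 fell, among them FOXM1 (-2.22) and MYBL2 (-1.99), transcription factors of the late cell cycle, and 1 rose, E2F5. With miR-107-mut2 29 of 31 S phase and 20 of 20 G2 and mitosis genes fell, and with miR-107-mut1 1 and 0. With miR-15b* 16 S phase genes fell (list median -0.67) and with miR-320 7 (-0.51), beside 3 and 1 of the G2 and mitosis genes. The median tested gene was at 0.01 to 0.05 with the 4 microRNAs. In the IP, with no test, the medians of the S phase list were -0.72 to -0.50 and of the G2 and mitosis list -0.77 to -0.62, smaller than in the lysate. MKI67, a marker of proliferation, fell in the lysate (mean -2.18) and read -0.24 to 0.01 in the IP, whereas PLK1 read -2.26 to -2.03 there. Whether low control levels in the IP limited the falls of these genes there was not tested.

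**Figure D5:**
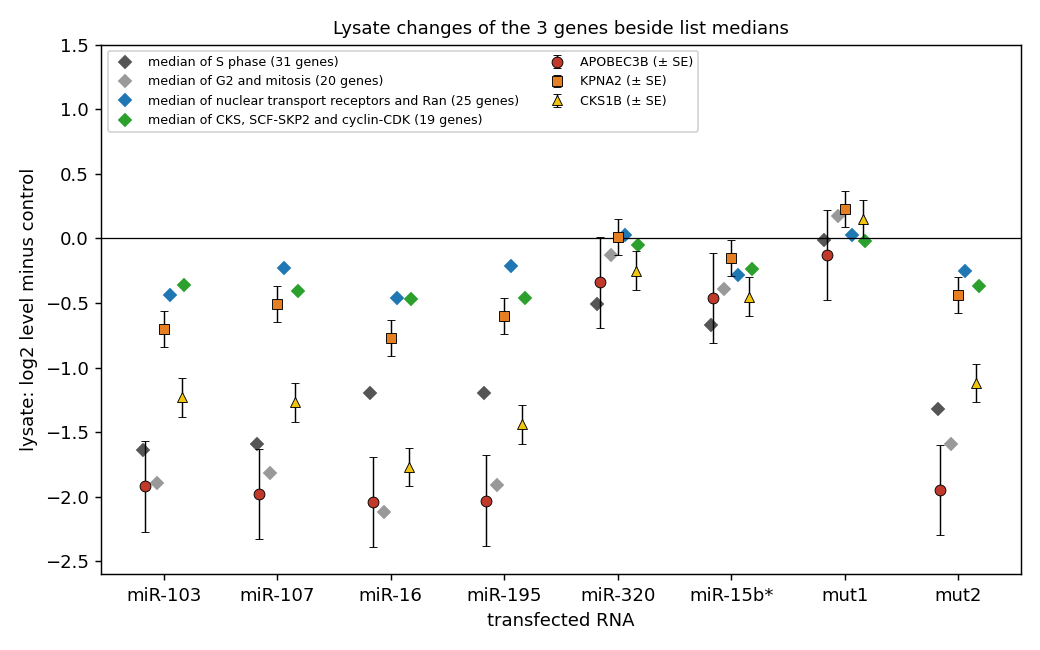
Lysate differences from the control (y axis, log2) of APOBEC3B, KPNA2 and CKS1B with their SE, beside the medians of 4 gene lists (diamonds), for 8 transfected RNAs (x axis). KPNA2 is itself in the transport list and CKS1B in the CKS list. With the 4 microRNAs and miR-107-mut2 (mut2), APOBEC3B lies near the median of the G2 and mitosis list, and KPNA2 closer to those of the transport and CKS lists; with miR-107-mut1 (mut1) all lie near 0.

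The genes whose levels were most like those of the 3 were found by Pearson correlation over the 27 arrays of a fraction, which share treatments and replicate numbers, so the values are descriptions. In the lysate APOBEC3B was most like NCAPH (0.972), GTSE1 (0.969), NUSAP1 (0.957), CDC20 (0.956) and OIP5 (0.956). KPNA2 was most like BUB1B (0.977), BUB1 (0.976), CDKN3 (0.971), CENPN (0.969) and PRC1 (0.964), and CKS1B like H1-4 (0.957), KIF2C (0.956), RACGAP1 (0.953), NCAPD2 (0.948) and SPAG5 (0.947). Of the 5 lysate neighbours of each gene, 2 for APOBEC3B, 3 for KPNA2 and 2 for CKS1B were in a cell cycle list. The lists counted were the S phase list, the G2 and mitosis list, and the CKS, SCF-SKP2 and cyclin-CDK list. These lists hold 31, 20 and 19 of the 11050 tested genes. In the IP the nearest genes were XRCC1 (0.954), CDC25C (0.927) and FAM83D (0.915) for APOBEC3B, TUBB4B (0.947), HNRNPUL1 (0.937) and EIF3F (0.931) for KPNA2, and FOXM1 (0.939), NCAPD2 (0.934) and PLK1 (0.929) for CKS1B. APOBEC3B and KPNA2 correlated at 0.903 with each other in the IP, KPNA2 and CKS1B at 0.909, and APOBEC3B and CKS1B at 0.866.

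The promoters of KPNA2 and CKS1B are shown because both messages fell together with cell cycle genes. They run from 250 bases before to 50 after the start site in RefSeq (GRCh38.p14), with 2 motifs known from late cell cycle promoters in capitals, the cell cycle homology region TTTGAA and the CCAAT box, searched on both strands. APOBEC3B was not matched.
KPNA2 (chr17:68035485-68035784, plus strand): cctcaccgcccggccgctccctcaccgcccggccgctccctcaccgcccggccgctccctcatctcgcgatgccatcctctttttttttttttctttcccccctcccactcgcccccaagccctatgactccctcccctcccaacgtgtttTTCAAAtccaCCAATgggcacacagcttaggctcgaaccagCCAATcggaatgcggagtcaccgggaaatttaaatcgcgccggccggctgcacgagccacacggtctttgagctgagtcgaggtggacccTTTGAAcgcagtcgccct
CKS1B (chr1:154974431-154974730, plus strand): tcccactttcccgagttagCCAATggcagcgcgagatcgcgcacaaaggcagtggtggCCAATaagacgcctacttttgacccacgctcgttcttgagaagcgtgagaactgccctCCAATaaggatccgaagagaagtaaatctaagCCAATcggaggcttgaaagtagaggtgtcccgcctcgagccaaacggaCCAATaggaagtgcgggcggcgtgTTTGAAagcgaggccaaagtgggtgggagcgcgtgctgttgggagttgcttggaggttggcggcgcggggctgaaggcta
KPNA2 held 2 matches to TTTGAA, 1 of them on the minus strand as TTCAAA, and 2 to CCAAT. CKS1B held 1 match to TTTGAA, 30 bases before the start site, and 5 to CCAAT. Of 35116 promoters of the same length 15.16% held TTTGAA, 34.61% CCAAT and 5.9% both. The matches are descriptions of these windows only.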

How the data were processed

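Anti-Argonaute IPs and total lysates were profiled on 54 Human Gene 1.0 ST arrays (Affymetrix). The deposited values are log2 RMA values, which the authors made with Expression Console 1.1 according to the submitters' processing notes; the log base is not stated there and was read from the range of the values. The genome build is not given in the sources used here, and how the fractions were normalized is not stated. The probe table, whose annotation can be old, gives 1 gene symbol for 19460 of the 33297 probe sets, several for 1754 and no symbol for 12083. Where probe sets shared a gene (769 genes), that of highest mean was kept, and 18388 of 18417 genes matched RefSeq by gene ID. A filter on the mean level removed the lowest 40%, 7367 genes under 5.26.

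Each fraction was fitted alone in limma 3.58.1 (R 4.3.3; 27 arrays, 9 groups, eBayes, two-sided), with Benjamini-Hochberg adjustment over 11050 genes and calls at an adjusted p under 0.05. The models were tested on simulated data. The number of arrays limits the precision. Contrasts holding IP arrays that chose the genes were not tested. The genes and lists were chosen with earlier results of these data known. Neighbours in an order of levels are called within the spread where their means differ by less than the pooled SD. Named from each list are up to 4 members with the largest mean lysate change over the 4 microRNAs among those called, members fixed by role, and the 5 most correlated genes of each fraction (3 are given for the IP); E2F5 was named after its values were seen. Alternatives were other filters, cyclic loess, trend and robust settings, array weights, only the arrays compared, the mean of the control, miR-320 and miR-15b* as 3 controls, the replicate number as a block, other probe sets, and each array left out; leaving out the arrays whose mean correlation lay over 5 MADs below the median was chosen after seeing the data. Python 3.11.15 with pandas 2.3.3 and matplotlib 3.10.9 made the tables and plots.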

Additional observations from a re-analysis of the deposited data

Results flagged for a closer look

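The lysate difference of miR-107 from its altered form miR-107-mut1 passed the test for all 3 genes, at -1.85 for APOBEC3B, -0.74 for KPNA2 and -1.43 for CKS1B, while that from miR-107-mut2 passed for none. The seed pairs differed for CKS1B, with a value 0.35 higher with miR-103 and miR-107 than with miR-16 and miR-195, and that call did not hold without 6 of the 12 arrays taken singly. Groups of 3 arrays were not tested for outlying samples.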

How the results depend on the processing

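The lysate calls of APOBEC3B and CKS1B with the 4 microRNAs and miR-107-mut2 held under every alternative run. With the replicate number as a block the IP differences of miR-107-mut2 from miR-320 and miR-15b* were -1.62 for APOBEC3B and -1.61 for KPNA2, both called, and no other call of the 3 genes changed. The mean correlation of same-number deviations was 0.266 (IP) and 0.307 (lysate), against -0.133 and -0.136 for other numbers, with 84 and 79 of 108 same-number pairs over 0.1; since not every pair was and the meaning of the shared code is not stated, the block was kept as an alternative. Cyclic loess called the same differences at -1.70 and -1.69, called CKS1B with miR-15b* in the lysate at -0.46, lost KPNA2 with miR-107-mut2 in the lysate at -0.43, and turned APOBEC3B in miR-320 minus miR-15b* (IP) to -0.08 and the CKS1B gap with miR-107-mut1 to -0.04. With array weights KPNA2 was called in the IP with miR-107-mut2 at -1.86, CKS1B in the lysate with miR-15b* at -0.43 and KPNA2 between the seed pairs at 0.16. They lost miR-320 minus miR-15b* in the IP at 1.94 for both KPNA2 and CKS1B and put APOBEC3B in miR-107 minus miR-107-mut2 at 0.01. With only the arrays compared the calls of KPNA2 (2.41) and CKS1B (2.23) in that IP contrast and of CKS1B between the seed pairs (0.35) were lost. Without the arrays that stand apart, an alternative chosen after seeing the data, that IP contrast was 1.53, 1.55 and, for APOBEC3B, -0.20, and KPNA2 with miR-107-mut2 was called at -2.05. The mean of 3 controls made the IP differences smaller, at -3.71 to -2.76, -2.85 to -2.43 and -2.62 to -2.17 with the 4 microRNAs for APOBEC3B, KPNA2 and CKS1B, and put miR-107-mut1 in the lysate at 0.14 for APOBEC3B and at a called 0.39 for CKS1B. No filter lost KPNA2 with miR-107-mut2 in the lysate at -0.44. CKS1B probe set 7905826 gave IP values of 0.02 with miR-103, -0.40 with miR-320, -0.09 with miR-107-mut1 and -0.02 for miR-320 minus miR-15b*, and an uncalled 0.25 between the seed pairs. The causes were not tested.

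Leaving out each array in turn gave ranges in the IP, for miR-107-mut1 minus miR-320 and miR-15b*, of -0.01 to 0.80 (APOBEC3B), -0.49 to 0.37 (KPNA2) and 0.72 to 1.52 (CKS1B), and for miR-107-mut2 of -2.05 to -1.26 (KPNA2). For miR-320 minus miR-15b* they were -0.20 to 1.13, 1.53 to 3.12 and 1.55 to 3.16. Against the control in the IP they were -0.71 to 0.06 for KPNA2 with miR-320 and -0.02 to 0.50 for CKS1B with miR-107-mut1. In the lysate KPNA2 ranged from -0.61 to -0.41 with miR-107, -0.54 to -0.34 with miR-107-mut2 and -0.09 to 0.14 with miR-320. APOBEC3B ranged from -0.63 to 0.10 with miR-320 and -0.27 to 0.10 with miR-107-mut1. Between the seed pairs the ranges were -0.03 to 0.24 for APOBEC3B and 0.22 to 0.43 for CKS1B, and for miR-107 minus miR-107-mut2 -0.25 to 0.28 for APOBEC3B and -0.17 to 0.03 for KPNA2. The gap of IP and lysate ranged from -0.72 to 0.05 for KPNA2 with miR-320 and -0.18 to 0.35 for CKS1B with miR-107-mut1.

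Counts over all genes moved more. Array weights raised the genes called lower in the lysate from 981 to 2718 with miR-103, 923 to 2656 with miR-107, 823 to 3281 with miR-16 and 798 to 3084 with miR-195. Genes called higher with miR-320 than with miR-15b* in the IP, 610, ranged from 59 with only the arrays compared to 2110 without miR-15b* IP replicate 3, and those lower with miR-107-mut2, 93, from 2 to 292. Background probes were not used here, and the IP levels of the 3 genes with the 4 microRNAs lay near the array medians.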
